A study of Mus musculus with 24 samples.

Results

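The histone genes of Neuro2A cells, a mouse neuroblastoma line, were taken as the rows whose symbol names a linker histone (H1f), a clustered core histone (H2ac, H2bc, H3c, H4c) or a variant (H2az1, H2az2, H2ax, H3f3a, H3f3b, Macroh2a1, Macroh2a2), with a level of 0.5 CPM (counts scaled to a common library total) or more in 3 or more samples. Of 76 rows that carried such a symbol, 44 passed this filter on low values, out of 13901 genes that passed it among the 39253 genes of the table. Of the 44, 36 were replication-dependent genes (H1f1 to H1f5 and the H2ac, H2bc, H3c and H4c genes) and 8 were variant genes. The 32 rows left out were 27 replication-dependent genes and the variants H1f6, H1f7, H1f8, H1f9 and Macroh2a2.

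The study transfected Neuro2A cells with plasmids that carry a CAG-driven RNA-targeting CRISPR effector protein and a U6-driven crRNA, and harvested them 48 hr later. The effectors were RfxCas13d, HiFi-RfxCas13d (a high-fidelity form of the same nuclease) and DiCas7-11, each with a crRNA against mouse ataxin-2 (mATXN2) or a non-targeted crRNA (NTG). An untransfected group and an ASO group, whose cells received an ataxin-2-directed antisense oligonucleotide, completed the 8 groups, with 3 biologically independent samples in each and 24 in all. No group labelled as an empty transfection or as a control oligonucleotide was analysed here. In the deposited table the control arms carry another short name (EV) than in the sample titles (NTG), and the targeting arms carry another guide number than in the titles, so which crRNA either arm received rests on the sample labels. The transfection was transient, and the share of cells that took up a plasmid was not given in the sources used here.

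Chromatin is built from nucleosomes, in which DNA wraps around the core histones H2A, H2B, H3 and H4, while the linker histone H1 binds where the DNA enters and leaves. Replication-dependent histone genes lie in clusters, lack introns and are transcribed in S phase to package newly copied DNA, and their mRNAs typically end in a conserved stem-loop, bound by SLBP, rather than in a poly(A) tail. Variant histone genes stand alone, usually make ordinary polyadenylated mRNAs throughout the cell cycle, and supply replacement histones to nucleosomes outside replication.

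The letters of the stem-loop are shown for some of the members. The loop and both arms of the stem are in capitals, and 5 neighbouring bases on each side are in lower case. They were read 5′ to 3′ from GENCODE M21 transcript models (build GRCm38), and T stands for U of the mRNA.
H2ac23: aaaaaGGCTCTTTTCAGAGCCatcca
H1f2: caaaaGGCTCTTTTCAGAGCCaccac
H1f4: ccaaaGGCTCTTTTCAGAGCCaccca
H2bc12: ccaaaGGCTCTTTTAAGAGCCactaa
H4c18: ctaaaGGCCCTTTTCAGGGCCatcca
H2ax: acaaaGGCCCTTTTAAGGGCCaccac

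A match to the histone stem-loop motif was present in the models of 24 of the 36 replication-dependent members and of 1 of the 8 variants, H2ax. Of all 12292 tested genes with a transcript model, 1.48% held one. The commonest 16 letters, those of H2ac23, H1f2 and H1f4, were carried by 15 members and by 18 tested genes in all. A poly(A) signal (AATAAA or ATTAAA, on the transcript's own strand) within the last 40 bases was found for 7 of the 8 variants and 10 of the 36 replication-dependent members, against 87.9% of tested genes. For 15 members with a stem-loop, H2ax, H1f2 and H1f4 among them, a model ran more than 100 bases past it. The H1f2 model, 1560 bases long, holds its stem-loop at bases 705 to 720 and a poly(A) signal at its end, and the H2ax model, 1384 bases long, holds the stem-loop at bases 547 to 562 and a poly(A) signal at its end. The H2ac23 model ends 31 bases after the stem-loop. Several replication-dependent models stop near the stop codon, so a missing match says only that these letters are not in the model.

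The libraries were made with a kit for mRNA, so a message without a poly(A) tail was sampled only as far as that chemistry allowed, and levels here are not those of all histone mRNA. Levels by library are given, here and below, as CPM scaled by TMM (trimmed mean of M values) factors, the scale on which the tests ran, and means over all 24 libraries as plain CPM. Total counts ran from 12665725 to 22504999 per library, with the 3 ASO libraries the deepest. Atxn2, the targeted gene, stood at 121 to 125 CPM in untransfected cells and at 112 to 125 CPM in the NTG arms, compared with 112 to 116 CPM in the RfxCas13d, 98.7 to 104 CPM in the HiFi-RfxCas13d and 101 to 106 CPM in the DiCas7-11 mATXN2 arms, and with 48.8 to 54.1 CPM in the ASO arm. Of 10 Neuro2A markers 8 passed the filter, with a summed level of 1791 to 1856 CPM in untransfected cells, 1736 to 1880 CPM in the effector arms and 1653 to 1674 CPM in ASO-treated cells. Of the markers of other cells, 1 of 5 for fibroblasts, 2 of 4 for glia, 1 of 3 for immune cells and 1 of 2 for endothelium passed it, and their lists summed to 0.682 to 2.23, 14.3 to 19.3, 0.0641 to 2.36 and 5.82 to 10.1 CPM. Aqp4, an astrocyte marker, was at 0 throughout. The DiCas7-11 NTG libraries stood apart from one another, with a chi-square of 3.16 to 5.22 per gene between replicates, compared with 1.67 to 2.53 within the other groups.

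Per length, variant genes were far more abundant in these libraries than replication-dependent genes. The 8 variants ran from 14.02 CPM per kb of the longest transcript model (H2ax) to 580 CPM per kb (H3f3b), with a median of 123.4 CPM per kb. The 36 replication-dependent members ran from 0.0889 to 133 CPM per kb with a median of 0.742, and the single high value, 133 CPM per kb, was that of H2ac23; the next was 5.33 CPM per kb. On the plain CPM scale H2ac23, an H2A gene, had a mean of 63.8 CPM, compared with 3.83 for H2bc4, an H2B gene, and 3.39 for H1f2, a linker histone gene, the next highest of the class. Of the replication-dependent members 10 reached 0.5 CPM in all 24 libraries, and 12 did so in 6 libraries or fewer. All 8 variants reached it in every library.

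**Figure D1:**
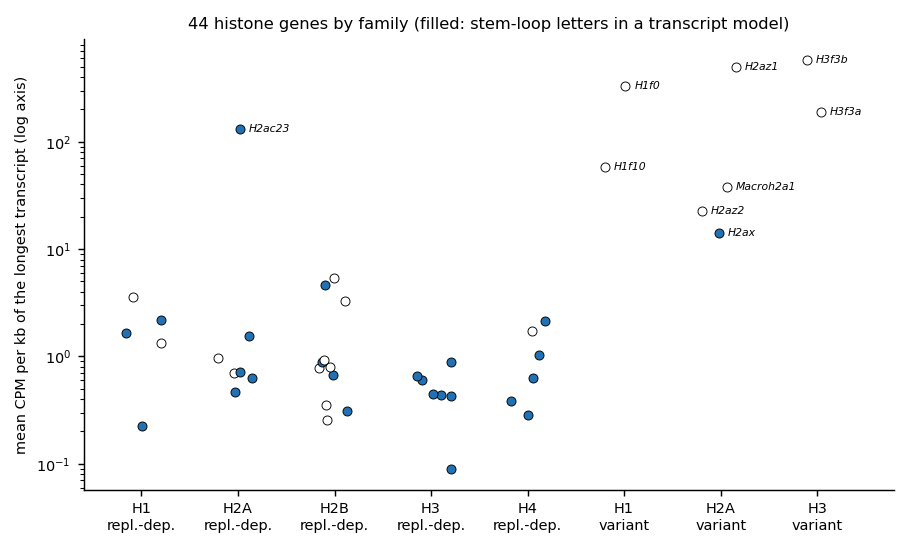
Mean level of each of the 44 histone genes over 24 libraries, in CPM per kb of the longest GENCODE M21 transcript model on a log axis, by family and class, with filled points for genes whose models hold the stem-loop motif. Replication-dependent genes lie at or below 5.33 CPM per kb except H2ac23 at 133, and the variants lie between 14.02 and 580.

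Many clustered histone genes are near copies of each other, which limits what an estimated count per gene can say. Of the 36 replication-dependent members 20 shared over 50% of their 31-base stretches with another histone gene of the rule, compared with 0 of the 8 variants, of which 7 shared none. H2ac18 and H2ac19, H2A genes whose models share 89.6% and 100% of their 31-base stretches with each other, were split unevenly from library to library. In 19 of 24 libraries one of them was at 0 and the other carried the whole level, and H2ac18 was at 0 in all 6 DiCas7-11 libraries. Their sum was 0.926 to 1.14 CPM in untransfected cells, 0.403 to 1.34 in RfxCas13d NTG and 1.31 to 1.76 in RfxCas13d mATXN2. H2bc23 and H2bc24 shared 98.2% and 89.4% and were both above 0 in all 24 libraries. H2ac24, which shares its letters with H2ac23, was at 0 in 23 libraries and at 2.62 CPM in DiCas7-11 NTG replicate 2, where H2ac23 had 52.5 CPM. Fold changes of single members of such pairs are uncertain, and H2ac23 is given below together with its sum with H2ac24.

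**Figure D2:**
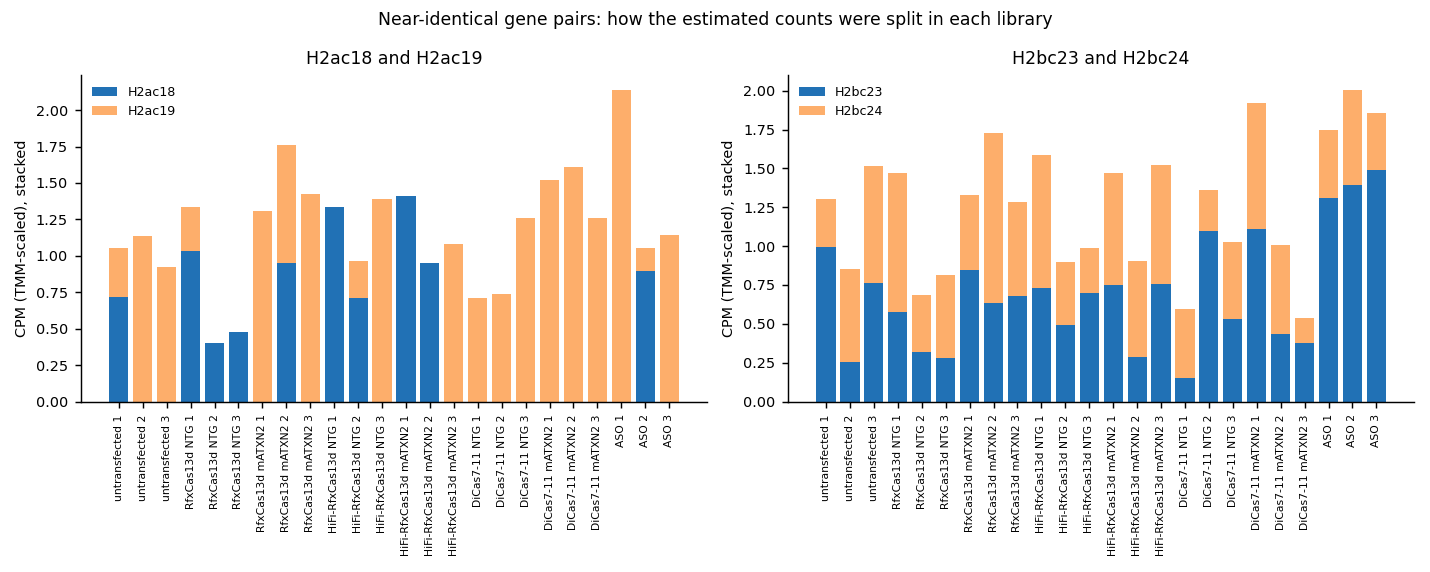
Stacked levels in TMM-scaled CPM of H2ac18 with H2ac19 and of H2bc23 with H2bc24 in each of the 24 libraries. H2ac18 and H2ac19 alternate, with 1 of them at 0 in 19 libraries, whereas both H2bc23 and H2bc24 have a share in every library.

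Fold changes and adjusted p-values come from edgeR's quasi-likelihood test over all 13901 genes, with Benjamini-Hochberg adjustment within a comparison, and a gene is called at an adjusted p under 0.05.

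The mATXN2 and NTG arms of each effector address what ataxin-2 targeting did beyond its target. H2az1, which encodes the main form of H2A.Z, a variant placed at promoters and enhancers, was higher with the mATXN2 crRNA for every effector. With RfxCas13d it stood at 552, 559 and 566 CPM in the mATXN2 samples and at 496, 536 and 504 CPM in the NTG samples. With HiFi-RfxCas13d the values were 576, 556 and 560.3 CPM against 523, 537 and 507 CPM. With DiCas7-11 they were 538, 548 and 547 CPM against 511, 492 and 516 CPM. In each of the 3 pairs of groups the lowest mATXN2 sample lay above the highest NTG sample. The log2 fold change was 0.13 ± 0.03 (SE) with RfxCas13d (adjusted p = 0.0147), 0.11 ± 0.03 with HiFi-RfxCas13d (adjusted p = 0.0732) and 0.10 ± 0.03 with DiCas7-11 (adjusted p = 0.0553), and only the first passed the threshold. Averaged over the 3 effectors it was 0.11 ± 0.02 (adjusted p = 1.69e-05), and this call held in all 28 alternatives run on it, at 0.09 to 0.13.

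The H2az1 response was not shown to differ between effectors. Relative to RfxCas13d, the log2 response was lower by 0.01 with HiFi-RfxCas13d (95% interval −0.09 to 0.06) and by 0.02 with DiCas7-11 (−0.10 to 0.05). H2az2, the second H2A.Z gene, did not pass the test in any of these comparisons, at log2 fold changes of 0.14 ± 0.07, 0.03 ± 0.07 and −0.01 ± 0.07 in the order RfxCas13d, HiFi-RfxCas13d and DiCas7-11.

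H3f3a and H3f3b both encode the H3 replacement variant that is laid down in active genes. H3f3a was called with RfxCas13d, at 558, 577 and 574 CPM in mATXN2 samples against 525, 539 and 518 CPM in NTG samples, without overlap (log2 fold change 0.11 ± 0.03, adjusted p = 0.0279). With the other effectors its fold changes were 0.03 ± 0.03 and −0.03 ± 0.03 on the log2 scale and were not called. H3f3b did not pass the test with any effector, at 0.03 ± 0.02, −0.04 ± 0.02 and −0.08 ± 0.02. With DiCas7-11 it was lower without overlap, at 1324, 1364 and 1356 CPM in mATXN2 samples against 1442, 1452 and 1392 CPM in NTG samples. The linker variants H1f0 and H1f10, the DNA damage variant H2ax and the macro-domain variant Macroh2a1 did not pass the test either, at log2 fold changes between −0.06 and 0.23.

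With RfxCas13d 2 of the 44 members were called, against 1.39% of all genes tested. With HiFi-RfxCas13d edgeR called 0 of 44, against 0.295% of all genes, with 5 members at an unadjusted p under 0.05 (7.45% of all genes), 1 called by DESeq2 (0.367%) and 2 by limma-trend (1.94%). With DiCas7-11 edgeR called 0 of 44, against 0.942%, with 4 members at an unadjusted p under 0.05 (14% of all genes) and 2 called by each of DESeq2 (1.17%) and limma-trend (4.58%). In the average over effectors 1 member was called, against 5.19%. The RfxCas13d count fell to 0 on leaving out any 1 of NTG replicates 1 and 3 and mATXN2 replicates 2 and 3, and after correction for coding length. Correction for transcript length left H3f3a called and took H2az1 to 0.08 (adjusted p = 0.152).

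Of the 36 replication-dependent members edgeR called none in these comparisons, with 4, 4 and 1 at an unadjusted p under 0.05 for RfxCas13d, HiFi-RfxCas13d and DiCas7-11, against 13.8%, 7.45% and 14% of all genes, and 8 in the average over effectors, against 18.2%. DESeq2 called 0 for each effector and 1 in the average, against 1.58%, 0.367%, 1.17% and 4.58% of all genes. limma-trend called 2, 1 and 0 by effector, against 5.09%, 1.94% and 4.58%. Of the 36 fold changes, 28 were higher in the mATXN2 arm of RfxCas13d, 24 in that of HiFi-RfxCas13d and 28 in that of DiCas7-11, with medians of 0.27, 0.20 and 0.21 on the log2 scale, against medians over all 13901 genes of 0.00162, −0.000997 and −0.000985. The filter on low values used these same libraries and the near copies share reads, so the counts are a description and not a test.

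Sums over every replication-dependent gene matched, which the filter does not touch, are given here as a description. All 63 genes summed to 92.0 to 99.2 CPM in RfxCas13d NTG and 108.5 to 112.7 CPM in RfxCas13d mATXN2 samples, to 92.8 to 101.5 and 103.3 to 109.0 CPM with HiFi-RfxCas13d, and to 88.3 to 105.8 and 104.8 to 109.5 CPM with DiCas7-11, so that only the last pair overlapped. Without H2ac23, the other 62 genes summed to 37.2, 32.2 and 34.8 CPM in RfxCas13d NTG samples and to 42.8, 40.5 and 41.4 CPM in RfxCas13d mATXN2 samples, without overlap. With HiFi-RfxCas13d the sums were 39.7, 36.5 and 36.4 CPM against 41.5, 40.4 and 38.2 CPM, and with DiCas7-11 35.0, 35.8 and 41.1 CPM against 46.0, 40.2 and 41.2 CPM, and both of these pairs overlapped. The sum of the 12 H4 genes was 4.11, 4.39 and 3.86 CPM in RfxCas13d NTG and 4.67, 4.401 and 5.70 CPM in RfxCas13d mATXN2 samples. It was 3.73, 3.72 and 4.002 CPM against 4.76, 4.92 and 4.14 CPM with HiFi-RfxCas13d, and 4.16, 4.01 and 4.43 CPM against 4.96, 6.09 and 5.73 CPM with DiCas7-11. The NTG and mATXN2 samples did not overlap for any effector, although with RfxCas13d the nearest values were 4.394 and 4.401 CPM. The 12 H3 genes separated with RfxCas13d (3.08 to 3.502 and 3.83 to 4.44 CPM) and HiFi-RfxCas13d (3.23 to 4.02 and 4.47 to 5.52 CPM) and overlapped with DiCas7-11 (2.85 to 4.12 and 3.83 to 4.90 CPM). The H1 sum separated with RfxCas13d (9.65 to 11.03 and 12.2 to 14.4 CPM) and overlapped with the other effectors, as did the H2B sum (11.99 to 14.8 and 15.01 to 16.4 CPM with RfxCas13d), whose mean was 15.41 CPM in NTG and 15.07 CPM in mATXN2 samples with HiFi-RfxCas13d. The H2A sum without H2ac23 overlapped for every effector, with means of 3.39 and 3.64, 3.28 and 3.41, and 4.21 and 4.27 CPM. Untransfected cells had H4 sums of 2.78, 3.93 and 4.10 CPM and an H2B sum of 10.8 to 12.1 CPM, below every mATXN2 sample. Their sum of all 63 genes was 103.1 to 114.0 CPM, their H1 sum 12.2 to 14.3 CPM and their H3 sum 3.52 to 4.64 CPM. The total, H1 and H3 ranges each overlapped the mATXN2 samples of every effector. Without H2ac23 their sum was 33.7 to 38.8 CPM, which overlapped mATXN2 samples with HiFi-RfxCas13d only. No p-value is given for these sums, since the families were described with their values known.

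**Figure D3:**
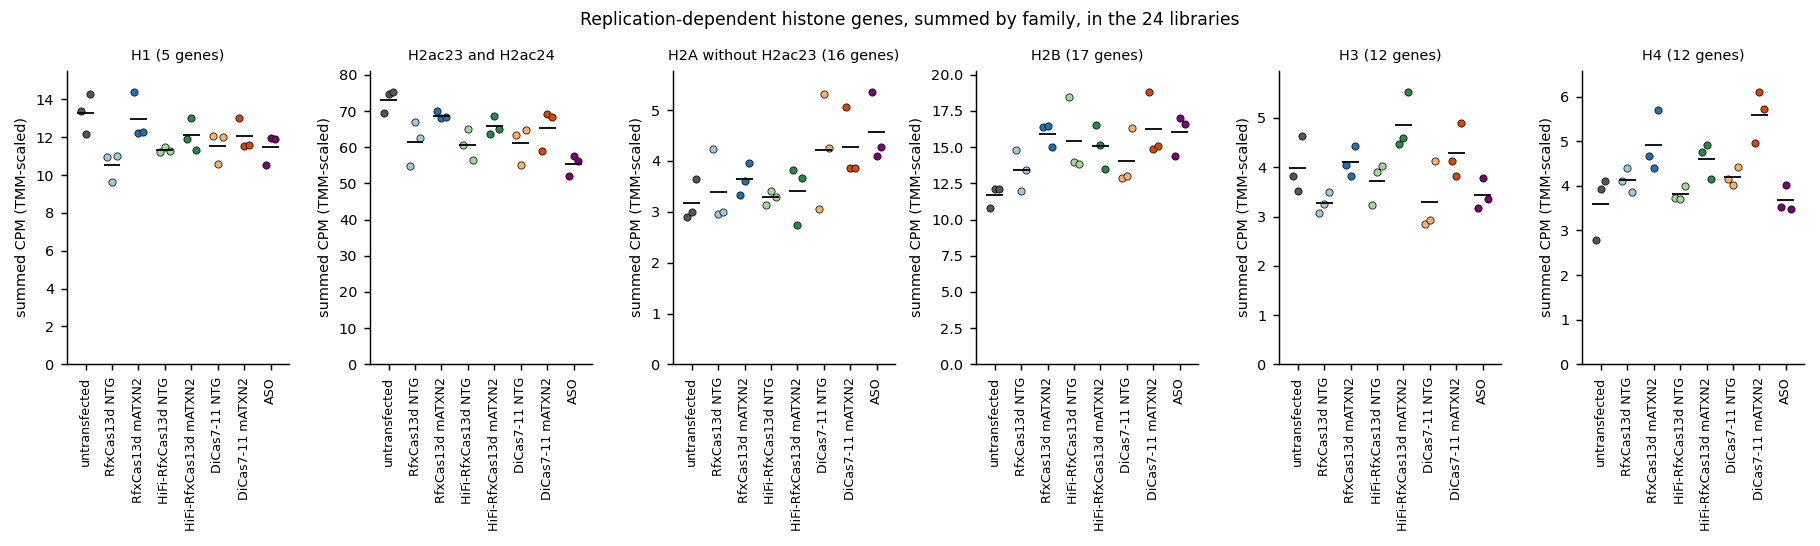
Summed TMM-scaled CPM of the replication-dependent genes of each family in 8 groups, with 1 point per library and a line at the mean of 3. The H4 sum lies at 3.72 to 4.43 in the NTG arms and at 4.14 to 6.09 in the mATXN2 arms, and the H2ac23 and H2ac24 sum is at 69.4 to 75.2 in untransfected cells and at 52.1 to 57.7 in the ASO arm.

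No member differed in its mATXN2 response between effectors at an adjusted p under 0.05. edgeR and DESeq2 both called 0 of 44 in each of the 3 comparisons of responses, edgeR called 0% of all genes in each and DESeq2 0%, 0.0216% and 0.0216%, and 4, 3 and 3 members had an unadjusted p under 0.05, against 6.15%, 7.8% and 7.4% of all genes. The smallest adjusted p was that of H3f3a, whose log2 response was lower by 0.14 ± 0.04 with DiCas7-11 than with RfxCas13d (adjusted p = 0.38).

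The NTG arms and untransfected cells differ in transfection, in the plasmid and in the effector protein with its non-targeted crRNA, which cannot be told apart here. The 3 comparisons, and that of the ASO, share the 3 untransfected samples. The linker variants fell most regularly. H1f0, a replacement linker histone known to accumulate in cells that leave the cell cycle and differentiate, had 784, 817 and 797 CPM in untransfected cells. It stood at 713, 723 and 724 CPM in RfxCas13d NTG, at 638, 657 and 649 CPM in HiFi-RfxCas13d NTG, and at 658, 639 and 674 CPM in DiCas7-11 NTG. No NTG sample reached the lowest untransfected one. The log2 fold change was −0.15 ± 0.02, −0.30 ± 0.02 and −0.28 ± 0.02 in that order (adjusted p = 4.34e-05, 2.56e-10 and 6.67e-10), and the 3 calls held in all alternatives run.

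H1f10, another stand-alone linker histone gene, was likewise lower in every NTG arm. Its levels were 81.8, 86.2 and 90.9 CPM in untransfected cells, 74.3, 74.2 and 76.4 CPM in RfxCas13d NTG, 67.8, 70.4 and 65.6 CPM in HiFi-RfxCas13d NTG, and 72.3, 63.5 and 62.8 CPM in DiCas7-11 NTG. The fold changes were −0.20 ± 0.05, −0.34 ± 0.05 and −0.38 ± 0.05 on the log2 scale (adjusted p = 0.00659, 9.20e-06 and 1.90e-06). After correction for GC content the RfxCas13d value was −0.07 (adjusted p = 0.364), and it was not called without untransfected replicate 3 (−0.16, adjusted p = 0.0542).

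Across all 8 groups H1f0 levels had an order. Untransfected cells were highest, followed by RfxCas13d mATXN2 (737 to 771 CPM) and RfxCas13d NTG (713 to 724 CPM), between which the difference was not called (0.06 ± 0.02, adjusted p = 0.180), then by HiFi-RfxCas13d and DiCas7-11 with either crRNA (626 to 674 CPM), and the ASO arm was lowest (527 to 530.4 CPM). The ranges of the 4 HiFi-RfxCas13d and DiCas7-11 groups overlapped one another. Between NTG arms, in comparisons added after the data were seen, H1f0 was lower with HiFi-RfxCas13d than with RfxCas13d by a log2 fold change of −0.15 ± 0.02 (adjusted p = 0.000357) and lower with DiCas7-11 than with RfxCas13d by −0.13 ± 0.02 (adjusted p = 0.000976). H1f10 was lower with DiCas7-11 than with RfxCas13d (−0.18 ± 0.05, adjusted p = 0.0364). No other member was called there, that is 1 of 44 against 0.619% of all genes for HiFi-RfxCas13d with RfxCas13d, and 2 of 44 against 3.39% for DiCas7-11 with RfxCas13d. For DiCas7-11 with HiFi-RfxCas13d edgeR called 0 of 44, against 0.705%, with 4 at an unadjusted p under 0.05, against 12%, and DESeq2 called 0.

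The 250 bases before the start of H1f0, H1f10 and H2az1 are shown because H1f0 and H1f10 both fell in the NTG and ASO arms and H2az1 rose with mATXN2 and the ASO. They are RefSeq sequences of build GRCm38.p6, which is not the build of the authors' quantification, written 5′ to 3′ on the gene's strand, with capitals for the motifs found in any of them.
H1f0, chr15:79027962-79028211, plus strand: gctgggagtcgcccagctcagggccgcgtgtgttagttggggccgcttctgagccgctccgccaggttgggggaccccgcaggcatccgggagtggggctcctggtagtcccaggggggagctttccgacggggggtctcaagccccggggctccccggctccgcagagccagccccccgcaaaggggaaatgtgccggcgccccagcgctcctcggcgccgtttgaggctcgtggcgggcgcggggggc
H1f10, chr6:87981483-87981732, minus strand: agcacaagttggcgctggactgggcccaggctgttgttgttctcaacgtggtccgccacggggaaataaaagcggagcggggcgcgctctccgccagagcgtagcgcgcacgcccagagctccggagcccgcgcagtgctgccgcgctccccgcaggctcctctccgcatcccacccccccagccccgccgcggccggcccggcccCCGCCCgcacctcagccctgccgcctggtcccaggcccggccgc
H2az1, chr3:137864237-137864486, plus strand: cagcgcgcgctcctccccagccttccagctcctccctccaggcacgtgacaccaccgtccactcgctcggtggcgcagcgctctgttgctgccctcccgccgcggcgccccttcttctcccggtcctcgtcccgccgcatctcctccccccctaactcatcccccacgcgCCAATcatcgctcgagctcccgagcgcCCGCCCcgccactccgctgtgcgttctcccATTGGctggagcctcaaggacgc

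The motifs searched on both strands were the CCAAT box (CCAAT), the TATA box (TATAAA), the GC box (GGGCGG), the H1 box (AAACACA) and the CHR element (TTTGAA), none of which overlapped another in these 3 windows. H2az1 held a CCAAT box starting 80 bases before the start, another on the opposite strand 23 bases before it, and a GC box on the opposite strand between them. H1f10 held a GC box alone, and H1f0 held none of the 5. A chromosome was left out of the windows counted for all genes. Of these 32851 windows, 33.8% held a CCAAT box, 12.4% a TATA box and 32.7% a GC box. An H1 box was in 6.25% and a CHR element in 5252 windows. RefSeq windows were matched for 34 of the 36 replication-dependent members, as 35 windows, and for 7 of the 8 variants. A CCAAT box was in 29 of the 35 and 4 of the 7, and a TATA box in 15 of the 35 and 1 of the 7. A GC box was in 14 and 5, an H1 box in 6 and 1 and a CHR element in 14 and 1.

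H2ax, whose protein is phosphorylated around DNA breaks and whose model holds both kinds of mRNA end, was at 22.2, 23.4 and 23.02 CPM in untransfected cells. It was at 21.5, 16.7 and 17.6 CPM in HiFi-RfxCas13d NTG (−0.30 ± 0.09, adjusted p = 0.0155) and at 19.3, 15.7 and 19.1 CPM in DiCas7-11 NTG (−0.35 ± 0.09, adjusted p = 0.00608), below every untransfected sample in both. In RfxCas13d NTG it was at 20.7, 20.05 and 17.96 CPM and was not called (−0.23 ± 0.09, adjusted p = 0.0944). The HiFi-RfxCas13d call was lost without untransfected replicate 2, without NTG replicate 2 or replicate 3, and after GC correction, and the DiCas7-11 call without NTG replicate 2 (−0.25, adjusted p = 0.0738).

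H3f3a and H3f3b fell by little. H3f3a was called in RfxCas13d NTG and DiCas7-11 NTG, with log2 fold changes of −0.09 ± 0.03 in both (adjusted p = 0.0279 and 0.0185), and H3f3b in the same 2 groups, with −0.07 ± 0.02 and −0.12 ± 0.02 (adjusted p = 0.0498 and 0.000279). The H3f3a calls were lost in 5 of 17 alternatives for RfxCas13d NTG (adjusted p up to 0.222) and in 4 of 17 for DiCas7-11 NTG (up to 0.162), and the H3f3b call of RfxCas13d NTG in 9 of 17. H2az1 did not pass the test in any NTG arm (log2 fold changes from −0.03 to 0.01), nor did H2az2 (−0.18 to −0.09) or Macroh2a1 (−0.03 to 0.07).

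**Figure D4:**
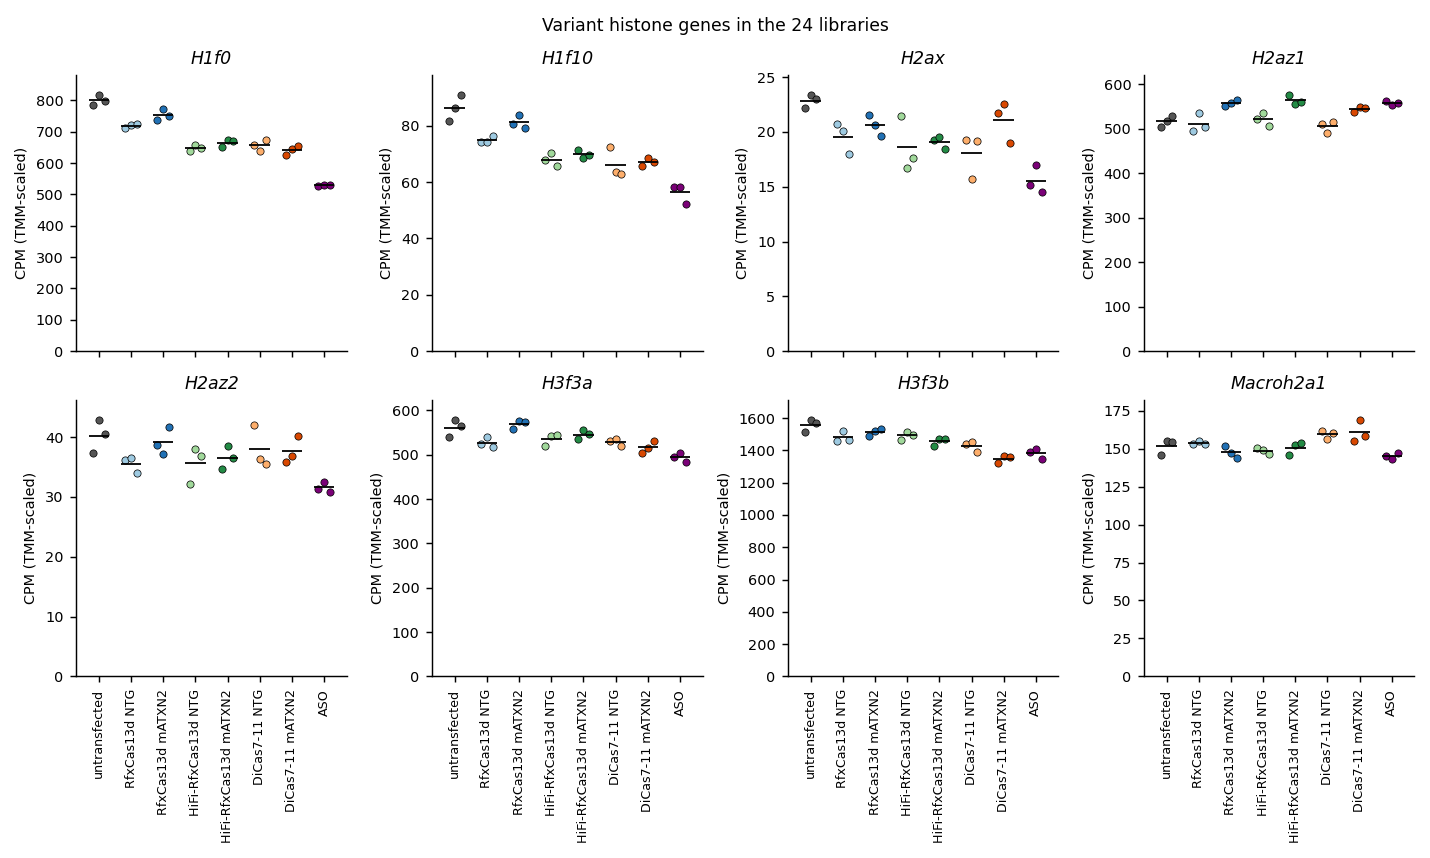
Level of each variant histone gene in TMM-scaled CPM in the 8 groups, with 1 point per library and a line at the mean of 3. H1f0 and H1f10 step down from untransfected cells over the effectors to the ASO arm, at 527 to 530.4 CPM and 52.4 to 58.4 CPM, whereas H2az1 is higher in all mATXN2 samples and in the ASO arm, at 538 to 576 CPM, than in untransfected cells.

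Among replication-dependent genes H2bc4 rose in all 3 NTG arms while H1f4 and H2ac23 fell. H2bc4, an H2B gene, was at 2.33, 2.71 and 2.23 CPM in untransfected cells and at 3.73 to 5.16 CPM in the 9 NTG samples. Its log2 fold changes were 0.84 ± 0.16, 0.88 ± 0.16 and 0.71 ± 0.17 for RfxCas13d, HiFi-RfxCas13d and DiCas7-11 (adjusted p = 0.000956, 0.000248 and 0.00260), held in all alternatives run. H1f4, an S-phase linker histone gene, was at 4.18, 4.31 and 4.31 CPM in untransfected cells. It was at 2.67, 2.16 and 2.50 CPM in RfxCas13d NTG (−0.79 ± 0.19, adjusted p = 0.00571) and at 2.75, 2.56 and 2.69 CPM in HiFi-RfxCas13d NTG (−0.68 ± 0.19, adjusted p = 0.00895). In DiCas7-11 NTG it was at 3.38, 2.43 and 3.74 CPM and was not called (−0.43 ± 0.18, adjusted p = 0.094).

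H2ac23 was at 69.4, 74.7 and 75.2 CPM in untransfected cells, compared with 54.8, 67.0 and 62.5 CPM in RfxCas13d NTG, 60.6, 65.0 and 56.4 CPM in HiFi-RfxCas13d NTG, and 63.4, 52.5 and 64.7 CPM in DiCas7-11 NTG. All 9 NTG samples lay below the 3 untransfected ones. The log2 fold changes were −0.25 ± 0.07, −0.27 ± 0.07 and −0.28 ± 0.07 (adjusted p = 0.0244, 0.00790 and 0.00488). Adding H2ac24 changed the level of 1 library, DiCas7-11 NTG replicate 2, to 55.1 CPM. After GC correction none of the 3 calls held (−0.16, −0.16 and −0.18, adjusted p = 0.150, 0.0942 and 0.0606), and the RfxCas13d call was also lost after correction for transcript length (−0.18, adjusted p = 0.102) and without any 1 of untransfected replicates 2 and 3 or NTG replicates 1 and 3, the HiFi-RfxCas13d call without NTG replicate 3 and the DiCas7-11 call without NTG replicate 2.

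In the NTG arms 7, 6 and 7 of the 44 members were called for RfxCas13d, HiFi-RfxCas13d and DiCas7-11, against 11.3%, 20.9% and 21.9% of all genes. Of these, 6, 5 and 6 were lower, against 5.66%, 10.6% and 10.8% of all genes called lower. The only member called higher in each was H2bc4. The RfxCas13d count was 4 without untransfected replicate 2, 3 without untransfected replicate 3, and 4 without NTG replicate 1 or replicate 3. The summed fibroblast markers moved with these comparisons, at 1.81 to 2.23 CPM in untransfected cells and 0.682 to 1.61 CPM in NTG samples, with Col1a1 called lower in HiFi-RfxCas13d NTG (−0.95 ± 0.33, adjusted p = 0.0429). The endothelial markers were at 7.81 to 10.1 and 5.82 to 8.81 CPM, with Pecam1 called lower in DiCas7-11 NTG (−0.43 ± 0.13, adjusted p = 0.0163), and the immune markers at 0.0641 to 0.382 and 0.207 to 0.838 CPM. Their part in these results was not tested.

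**Figure D5:**
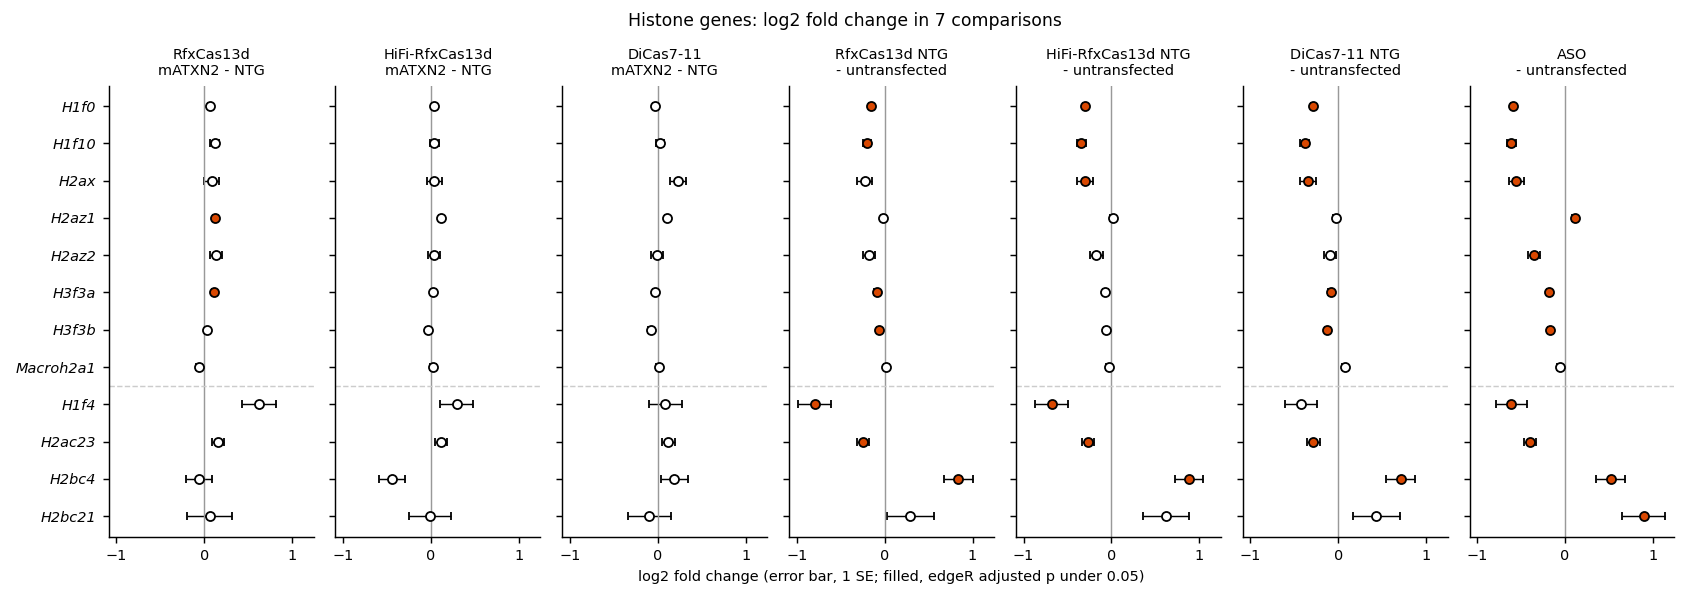
Log2 fold changes of the 8 variant genes (above the dashed line) and 4 replication-dependent genes in 7 comparisons, with error bars of 1 SE and filled points for an edgeR adjusted p under 0.05. Linker variants, H2ac23 and H1f4 lie left of 0 and H2bc4 and H2bc21 right of 0 in the comparisons with untransfected cells, and H2az1 lies right of 0 in the mATXN2 comparisons and in the ASO arm.

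The ASO lowers ataxin-2 without an effector protein. Its arm differed from untransfected cells at the largest number of histone genes and also at the largest share of all genes. Of the 44 members 12 were called, against 42.7% of all genes, and 8 of them were lower, against 21.7% of all genes called lower. Oligonucleotide treatment and ataxin-2 knockdown cannot be told apart here, nor can the way of delivery or the time of harvest. The labels state neither the delivery nor the harvest time separately for this arm, and no separate time for untransfected cells. Of the variants 6 of 8 fell and 1 rose. H1f0 stood at 527, 530.2 and 530.4 CPM (−0.60 ± 0.02, adjusted p = 2.19e-17), which was below every other library of the study. H1f10 stood at 58.3, 58.4 and 52.4 CPM (−0.61 ± 0.05, adjusted p = 2.78e-11) and H2ax at 15.1, 16.97 and 14.5 CPM (−0.56 ± 0.09, adjusted p = 6.84e-06).

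H2az2 stood at 31.4, 32.6 and 30.8 CPM in ASO-treated cells and at 37.4, 42.8 and 40.6 CPM in untransfected cells (−0.35 ± 0.07, adjusted p = 0.000106). H2az1 went the other way, at 562, 553 and 558 CPM against 505, 518 and 529 CPM (0.11 ± 0.03, adjusted p = 0.00141), with no overlap in either gene. The H2az1 call was lost after GC correction (0.06, adjusted p = 0.0522) and held in the other 16 alternatives run. H3f3a and H3f3b fell by 0.18 and 0.17 on the log2 scale (SE 0.03 and 0.02, adjusted p = 2.17e-06 and 5.65e-07). Macroh2a1 was not called (−0.06 ± 0.03, adjusted p = 0.106).

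Of the 36 replication-dependent members 3 rose and 2 fell with the ASO, against 21% and 21.7% of all genes. H2ac23 stood at 52.1, 57.7 and 56.3 CPM (−0.40 ± 0.07, adjusted p = 2.85e-05) and H1f4 at 2.17, 3.03 and 3.13 CPM (−0.61 ± 0.18, adjusted p = 0.00562). H2bc4 rose to 3.26, 3.87 and 3.29 CPM (0.52 ± 0.16, adjusted p = 0.0107), a call lost without ASO replicate 2 (0.43, adjusted p = 0.0568). H2bc21, an H2B gene whose model has a poly(A) signal near its end and holds no stem-loop match, rose from 1.35, 2.09 and 1.82 CPM in untransfected cells to 2.62, 3.86 and 3.35 CPM (0.89 ± 0.24, adjusted p = 0.00384). H2ac12, an H2A gene, was at 0.233 CPM in 1 untransfected library and at 0 in the other two, and at 0.377, 0.733 and 0.766 CPM in ASO-treated cells (2.72 ± 0.86, adjusted p = 0.0116). This call was lost without untransfected replicate 2 (2.11, adjusted p = 0.0714), and the log2 fold change ran from 1.74 to 6.45 over 16 alternatives. H2ac12 shares 91.2% of its 31-base stretches with other histone genes. It reached 0.5 CPM in 4 libraries and would not have passed the filter without the ASO group. Its call, also where it enters the counts of called members, is therefore a description and not a test. The summed level of the 3 immune markers also moved with the ASO, from 0.0641 to 0.382 CPM in untransfected cells to 1.05 to 2.36 CPM, with Cd68 rising and Ptprc and Csf1r under the filter. Its part in these results was not tested.

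Genes that make, process or place histones were listed apart from the members. Of 20 genes for histone mRNA processing and transcription, 3 rose and 1 fell in RfxCas13d NTG against untransfected cells, 5 and 1 in HiFi-RfxCas13d NTG, 9 and 1 in DiCas7-11 NTG, and 5 and 3 with the ASO. Of all genes 5.6%, 10.3%, 11.1% and 21% rose and 5.66%, 10.6%, 10.8% and 21.7% fell in these comparisons, and the ASO count of 8 of 20 was near the 42.7% called of all genes. The smallest adjusted p within each comparison belonged to Cstf2, a 3′ end processing factor (0.15 ± 0.03), in RfxCas13d NTG, to Srrt, a partner of the cap-binding complex (0.15 ± 0.03), in HiFi-RfxCas13d NTG, to Cpsf2, a subunit of the cleavage factor (0.16 ± 0.03), in DiCas7-11 NTG, and to Gon4l (0.27 ± 0.04) with the ASO. Between mATXN2 and NTG the list had 1 gene called, Snrpb, a core snRNP protein, with RfxCas13d (0.18 ± 0.04, adjusted p = 0.0123) and in the average (0.13 ± 0.02). Of all genes 1.39% and 5.19% were called there. With HiFi-RfxCas13d and DiCas7-11 the list had 0 called, against 0.295% and 0.942% of all genes.

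Of 25 chaperone and deposition genes, Ep400, the ATPase of a complex that exchanges H2A for H2A.Z, rose with mATXN2 for each effector, by 0.29 ± 0.04, 0.27 ± 0.04 and 0.24 ± 0.04 on the log2 scale (adjusted p = 0.000407, 0.00203 and 0.00470). Srcap, the ATPase of the other H2A.Z exchange complex, rose with DiCas7-11 (0.24 ± 0.04, adjusted p = 0.00161). The list had 1, 1 and 4 genes called for RfxCas13d, HiFi-RfxCas13d and DiCas7-11, against 1.39%, 0.295% and 0.942% of all genes. All were higher but Nap1l1 with DiCas7-11, an H2A and H2B chaperone named after its values were seen (−0.12 ± 0.03, adjusted p = 0.0161). In the average over effectors 3 were called higher and 1 lower, against 5.19% of all genes called. In the NTG arms 4, 4 and 9 of the 25 rose and 0 fell, against 5.6%, 10.3% and 11.1% of all genes that rose. With the ASO 10 rose and 3 fell, against 21% and 21.7%, led by Ino80 (0.39 ± 0.04), a remodeler that acts on H2A.Z nucleosomes, and Srcap (0.35 ± 0.04).

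Of 25 S phase genes, which are transcribed at the time replication-dependent histones are needed, 5, 10 and 12 rose and 0 fell in the RfxCas13d, HiFi-RfxCas13d and DiCas7-11 NTG arms, against 5.6%, 10.3% and 11.1% of all genes that rose. The summed level of the list was 3631 to 3837 CPM in untransfected cells and 3884 to 4060 CPM in NTG samples, without overlap, while the replication-dependent sum without H2ac23 was 33.7 to 38.8 CPM and 32.2 to 41.1 CPM, with overlap. With H2ac23 included the replication-dependent sum was 103.1 to 114.0 CPM in untransfected cells and 88.3 to 105.8 CPM in NTG samples, lower in the mean and with overlap. With the ASO 4 S phase genes rose and 7 fell, against 21% and 21.7% of all genes, and the sum was 3672 to 3695 CPM. Between mATXN2 and NTG 0, 0 and 1 of the 25 were called by effector, against 1.39%, 0.295% and 0.942% of all genes. In the average over effectors 2 were called, both higher, against 5.19% of all genes called. Of 5 other histone genes outside the rule that passed the filter, 1 was called in these comparisons, Cenpa, the centromeric H3 variant, which fell with the ASO (−0.20 ± 0.05, adjusted p = 0.00139).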

How the data were processed

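RNA from 24 Neuro2A cultures was read single-ended from stranded mRNA libraries. The authors quantified transcripts with Salmon (1.5.2, per the submitters' processing notes, with R 4.2.2) against the NCBI mouse transcriptome with the GRCm39 genome as decoy, with sequence and GC bias correction, and made gene-level estimated counts with tximport (lengthScaledTPM), which keeps reads shared by several genes. The deposited table holds these expected counts. A deposited column that marks the genes the authors kept was not used for the tests, and the number of sample columns left unmatched was 0.

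Expected counts were rounded and tested with edgeR 4.0.16 (glmQLFit, glmQLFTest, TMM, R 4.3.3), with 1 coefficient per group over all 24 samples and over genes that reached 0.5 CPM in 3 or more samples. An adjusted p under 0.05 was called, and intervals are 1.96 SE on either side. The study itself used limma-trend, kept here as an alternative (limma 3.58.1, adjusted over 10 comparisons), as was DESeq2 1.42.0. The other alternatives were DESeq2 size factors, other filters, only the groups compared, a replicate block, corrections for length and GC content (88.4% of tested genes had a transcript length) and leaving out each library. Coding length correction and the comparisons between NTG arms were added after the data were seen. Scripts were tested on simulated counts. P-values set a difference of group means against the spread between samples within groups, estimated over all 8 groups together.

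Named were every variant that passed the filter, replication-dependent genes called in a comparison of groups (at most 12), the 3 with the highest mean CPM, and, of other lists, the 2 smallest adjusted p per list and comparison among those called. Some genes that this rule names are not reported here. The members and lists were chosen with earlier results of these data known. Antisense and overlapping genes were not separated further. In bulk samples fewer cells in a state and less mRNA per cell cannot be told apart. The transcript models and the promoters (GRCm38) are of another build than the authors used, so no gene coordinates are given beyond the promoter sequences.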

Additional observations from a re-analysis of the deposited data

Results flagged for a closer look

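The log2 fold change of H1f0 between an NTG arm and untransfected cells differed between effectors by the test of the difference itself, which is the comparison of the NTG arms. The value was −0.15 for HiFi-RfxCas13d against RfxCas13d and −0.13 for DiCas7-11 against RfxCas13d. That of H1f10 differed by −0.18 for DiCas7-11 against RfxCas13d. The first held in all 16 alternatives run. The H1f0 value of DiCas7-11 was lost when only the groups compared were fitted (adjusted p = 0.0751), and the H1f10 value was lost in 6 of 16 alternatives, with an adjusted p up to 0.188. Single outlying samples were not looked for within groups of 3.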

How the results depend on the processing

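The 11 counts of histone genes called were recomputed under 11 alternatives and with each library left out. With RfxCas13d, where 2 members were called between mATXN2 and NTG, limma-trend called 4, transcript length correction 1, the same with the replicate block 1, and coding length correction 0, and leaving out a library gave 0 to 2. With HiFi-RfxCas13d, where 0 were called, testing every gene with a nonzero total gave 1, DESeq2 1, limma-trend 2 and fitting only the groups compared 1. With DiCas7-11, where 0 were called, these were 2 for every gene with a nonzero total, 1 for a filter of 1 CPM, 2 for DESeq2, 2 for limma-trend, 2 with the replicate block, 1 with transcript length correction, 1 with that and the replicate block, and 1 with coding length correction, and leaving out a library gave 0 to 2. In the average over effectors, with 1 called, the counts were 4 for every gene with a nonzero total and 2 each for DESeq2, the replicate block, GC correction and coding length correction, and leaving out a library gave 1 to 3. For RfxCas13d NTG against untransfected cells, with 7 called, leaving out a library gave 3 to 7. Testing every gene with a nonzero total gave 1 call in the difference of response between HiFi-RfxCas13d and RfxCas13d and 1 in that between DiCas7-11 and RfxCas13d. The cause of these moves was not tested, save that fewer samples were fitted where a library was left out. The remaining counts stayed within 1.5 times. Of 38 called fold changes 22 stayed called in every alternative run on them, 16 lost the call in at least 1, and 0 changed sign. limma-trend was not run for the average or for the differences in response, since the study's 10 comparisons do not include them.

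The replicate numbers did not pair the samples: correlations of same-numbered deviations between compared groups ran from −0.0626 to 0.0467, none over 0.1. With the replicate block as an additive factor the counts named above were the only ones that moved by more than 1.5 times. Of the 36 replication-dependent members 12 reached 0.5 CPM in 6 libraries or fewer. How far depth, the mRNA kit or reads shared among near copies set these levels was not tested.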
